A study of Homo sapiens and Mus musculus with 6 samples.

Results

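The genes described here are 6 of the signal transducer and activator of transcription family, *STAT2*, *STAT3*, *STAT4*, *STAT5A*, *STAT5B* and *STAT6*, and 3 interferon regulatory factor genes, *IRF1*, *IRF2* and *IRF5*. They were chosen by symbol, and every listed promoter interaction with one of these symbols at the bait or at the other end was kept. The 9 genes, out of 30323 symbols named in the lists, took part in 124 of 92929 calls in GM12878 cells and in 78 of 101841 calls in mouse embryonic stem cells (mESCs).

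Promoter Capture Hi-C (CHi-C) pulls the *Hin*dIII restriction fragments that carry promoters, the baits, out of a Hi-C library, and so measures which other fragments lie near a promoter in the nucleus. GM12878 is a human lymphoblastoid line, that is, B cells immortalised with Epstein-Barr virus, grown in suspension with no treatment named, and was profiled in 3 biological replicates (coordinates below are hg19). The mESCs are J1 cells of the 129S4/SvJae strain, also with no treatment named, expanded on irradiated embryonic fibroblasts in serum and freed of these feeder cells by replating before harvest, and were profiled in 2 biological replicates, with 1 further Hi-C library (mm9). The authors merged the replicates of a cell type before calling, so each value below is 1 value per cell type with no spread between replicates, and a difference between the cell types is also one between species, depths and bait designs, which cannot be told apart. Each line is 1 cell line. No cytokine or interferon treatment is named, so the lists do not compare the genes with and without such stimulation.

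STAT proteins are held in the cytoplasm until a cytokine or interferon receptor activates its Janus kinases (JAKs), which phosphorylate them. The STATs then dimerise, enter the nucleus and bind gamma-activated sites (GAS), whereas STAT2 acts at interferon-stimulated response elements (ISRE) in a complex with IRF9. Interferon regulatory factors (IRFs) bind the same kind of ISRE through a shared DNA-binding domain, and IRF1 and IRF5 are known as activators in immune cells, IRF2 mainly as an antagonist of IRF1. In mouse ES cells, LIF acts through STAT3 to sustain self-renewal.

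Because STATs act on GAS elements, the 250 bases upstream of the outermost annotated start on each baited member fragment were searched for TTCNNNGAA on both strands. A match was found upstream of *IRF1* and *IRF2* in each species and upstream of none of the other members searched, which leave out human *STAT3*, for want of a fragment named for it. The *IRF1* stretches are shown because they lie on the baited fragments themselves, with the GAS letters in capitals, 5′ to 3′ on the strand of the gene, from chr5:131826566-131826604 of hg19 and chr11:53583411-53583449 of mm9.
Human *IRF1*: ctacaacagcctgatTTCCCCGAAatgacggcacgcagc
Mouse *Irf1*: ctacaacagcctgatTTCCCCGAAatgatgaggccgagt
The human match begins 120 bases before the start and the mouse match 90 bases before it. Of the 39 aligned bases, 32 are identical, and the first 28 bases are identical without a break. The *IRF2* stretch, chr4:185395921-185395959 of hg19, is shown for contrast, because it lies beyond the end of the *IRF2* bait and was therefore not on the captured fragment.
Human *IRF2*: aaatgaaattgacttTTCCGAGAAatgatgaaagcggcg
The ISRE core, 2 GAAA blocks with 2 bases between them, was found, among the stretches searched, only upstream of *IRF2*, in each species, where it overlaps the stretch with the GAS match. In mouse *Irf2*, the matches also lie beyond the bait's end. For comparison, 7.66% of 35116 RefSeq human promoter windows (GRCh38.p14, 250 bases before to 50 after a start) hold TTCNNNGAA, 1.15% hold the stricter TTCCNGGAA and 3.57% hold the ISRE core. In these windows, 8 of the 9 members matched by symbol with 14 windows in all, of which 1, that of *IRF1*, holds TTCNNNGAA and none holds either other motif. A match describes letters and does not show that a factor was bound.

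The number of calls per gene was uneven and its order differed between the cell types (the plot of calls of each gene by cell type). In GM12878 cells, *STAT6* had 60 calls, *STAT2* 21, *IRF1* 20, *IRF2* 9, *IRF5* 7, *STAT5B* 4, *STAT4* 2 and *STAT5A* 1, and *STAT3* was not listed. In mESCs, *Stat5a* had 22 calls, *Irf2* 13, *Irf5* 11, *Stat6* 10, *Stat5b* 9, *Irf1* 7, *Stat3* 4 and *Stat2* and *Stat4* 1 each. Over all listed genes, the median was 4 calls in each cell type and the upper quartile 10. *STAT6* thus had more calls than 99.0% of the genes listed in GM12878 cells, *STAT2* than 90.2% and *IRF1* than 89.4%. For *STAT6*, this rank counts 38 calls of a fragment that it shares with *LRP1*, and without them it had 22 calls. In mESCs, *Stat5a* had more than 91.1% and *Irf2* more than 81.4%. Without replicate values, it cannot be said which neighbours in these orders differ beyond their spread.

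**Figure D1:**
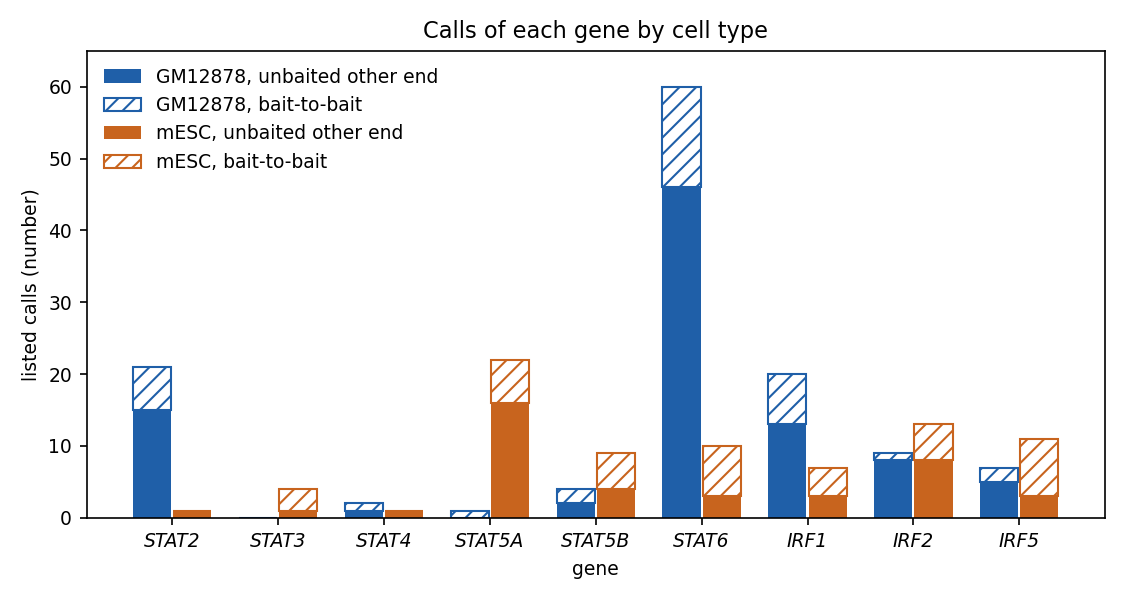
The bars give the number of listed calls (vertical axis) of each of the 9 genes, with filled parts for unbaited other ends and hatched parts for bait-to-bait calls, in GM12878 cells (blue) and mESCs (orange). *STAT6* and *STAT2* are highest in GM12878 cells, with 60 and 21 calls, *Stat5a* is highest in mESCs, with 22, and *STAT3* has no bar in GM12878 cells. Of the *STAT6* calls, 38 come from a fragment that it shares with *LRP1*. There is 1 merged list per cell type, so no error bars are drawn.

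Start sites set a limit on what some of these numbers measure. The 2 human fragments named for *STAT6* (12:57518762-57523884 and 57523885-57526598) each hold 1 of its 22 annotated starts, while 20 starts lie on an unnamed fragment (57490485-57511941) that is listed only as the other end of 2 calls. The first fragment also holds a start of *LRP1*, which encodes a lipoprotein receptor, so its 38 calls cannot be assigned to *STAT6* or *LRP1*. With the second fragment alone, *STAT6* had 22 calls. The human fragment named for *STAT5A* likewise holds 10 *STAT5A* starts and 2 of *STAT5B*. The mouse fragment named for *Irf1* also holds a start annotated for the coding gene *Gm17334*, so its 7 calls cannot be assigned to *Irf1* alone. For *STAT3*, the outermost start (17:40540558) lies on no fragment listed in GM12878 cells, and whether that fragment was captured was not analysed here. The human fragments of *IRF1* and *STAT5B* hold 11 of 28 and 12 of 23 annotated starts but not the outermost one, and the fragments named for the other members hold it in each cell type.

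All 202 calls joined fragments of the same chromosome, as did nearly all calls of the lists, 92641 of 92929 in GM12878 cells and 101262 of 101841 in mESCs. The longest member call spanned 694 kb in GM12878 and 672 kb in mESCs. The median distance in GM12878 cells was 111 kb (quartiles 62.0 and 223 kb), beside 174 kb over all *cis*-chromosomal calls. In mESCs it was 145 kb (80.3 and 276 kb), beside 139 kb. Reads per call, which are means over replicates weighted and rounded by the authors, had a median of 17 in GM12878 cells (6 to 68) and 13 in mESCs (4 to 66), beside 16 and 13 over all calls. The CHiCAGO score, which rises as a read count becomes less likely under the background expected at its distance, was at least 10 in 18 of the 124 calls (14.5%, beside 16.3% of all calls) and in 11 of the 78 (14.1%, beside 16.9%).

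*IRF1*, which is induced by interferon gamma, had the highest score among the human calls of the 9 genes. The highest score, 26.04 on 46 reads, joined its bait (5:131825017-131826955) to an unbaited fragment 73.2 kb downstream (5:131750586-131754941). The adjoining fragments on each side, at 69.1 and 75.8 kb, scored 18.81 and 17.98 on 37 and 34 reads. Next to these, the bait of *C5orf56*, a non-coding transcript beside *IRF1*, contacted *IRF1* with a score of 21.2 seen from *C5orf56* and 11.2 seen from *IRF1*, on the same 39 reads. Thus 4 neighbouring fragments from 69.1 to 78.9 kb held the 4 highest scores of *IRF1*. A second group lay at 97.1 to 118 kb, on fragments that overlap *SLC22A5*, a carnitine transporter gene: 5 unbaited fragments scored 5.06 to 15.91 on 14 to 28 reads, the highest at 102 kb on a fragment with a start of the gene, and the *SLC22A5* bait scored 5.46 on 6 reads. Of the 20 calls, 18 lay downstream and 2 upstream, the longer of these at 246 kb on a fragment with a start of *KIF3A*, a kinesin gene. In mESCs, *Irf1* had 7 calls, 5 of them downstream, and the highest score was 13.9 on 19 reads, from the bait of *Gm12216*, 85.3 kb away. It was followed by calls from *Rad50* (7.55, 10 reads), a DNA repair gene 62.3 kb upstream, and *Slc22a21* (6.14, 6 reads), a gene of the same transporter family as *SLC22A5*, 206 kb downstream.

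*IRF2* had calls at a longer range in mESCs than in GM12878 cells, and the ranges did not overlap. In GM12878 cells, its 9 calls all lay downstream at 117 to 203 kb, on 9 to 17 reads each. The highest score was 12.6 on 17 reads, on a fragment 157 kb away that overlaps no protein-coding gene, and the other 8 scores were between 5.11 and 7.11. In mESCs, 13 calls spanned 233 to 672 kb, with 5 upstream and 8 downstream. The pair with *Gm10083*, 672 kb downstream, rested on 24 reads and scored 33.5 from the *Gm10083* bait and 30.7 from the *Irf2* bait, the highest scores of all 202 calls. On the upstream side, a fragment with an exon of *Helt*, a neural transcription factor gene, scored 23.2 on 18 reads at 448 kb, and the fragment with *4933411K20Rik* scored 16.6 and 11.2, from either end, on 16 reads at 590 kb. Of the 13 calls, 6 scored at least 10, although the median read count was only 8.

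*IRF5*, which acts downstream of Toll-like receptors, had its calls on opposite sides in the 2 cell types. In GM12878 cells, all 7 lay downstream, from 77.6 to 294 kb, and in mESCs 10 of 11 lay upstream, from 15.6 to 350 kb. The highest human score, 13.3 on 18 reads, was on the fragment with a start of *AHCYL2*, 282 kb away, which also holds an exon of *SMO*, the Hedgehog signal transducer. It was followed by a fragment at 162 kb that overlaps no protein-coding gene (9.96, 13 reads) and a fragment with an exon of *TNPO3*, a nuclear import receptor gene, at 77.6 kb (7.77, 15 reads). In mESCs, *Flnc*, which encodes the muscle actin crosslinker filamin C, was contacted 89.0 kb upstream on 31 reads, with scores of 13.3 from *Irf5* and 9.84 from *Flnc*. A fragment in an intron of *Prrt4*, 350 kb upstream, scored 9.24 on 9 reads, and the bait of *Prrt4* itself scored 8.93 on 8 reads. The lowest human score, 5.15 on 11 reads, was on *TSPAN33*, a B cell tetraspanin gene 209.5 kb downstream. No partner symbol of *IRF5* was shared between the cell types. Outside the rule for members, however, 7 calls from 5 baits, including that of *Tspan33*, landed on 3 unnamed fragments inside *Irf5* in mESCs.

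**Figure D2:**
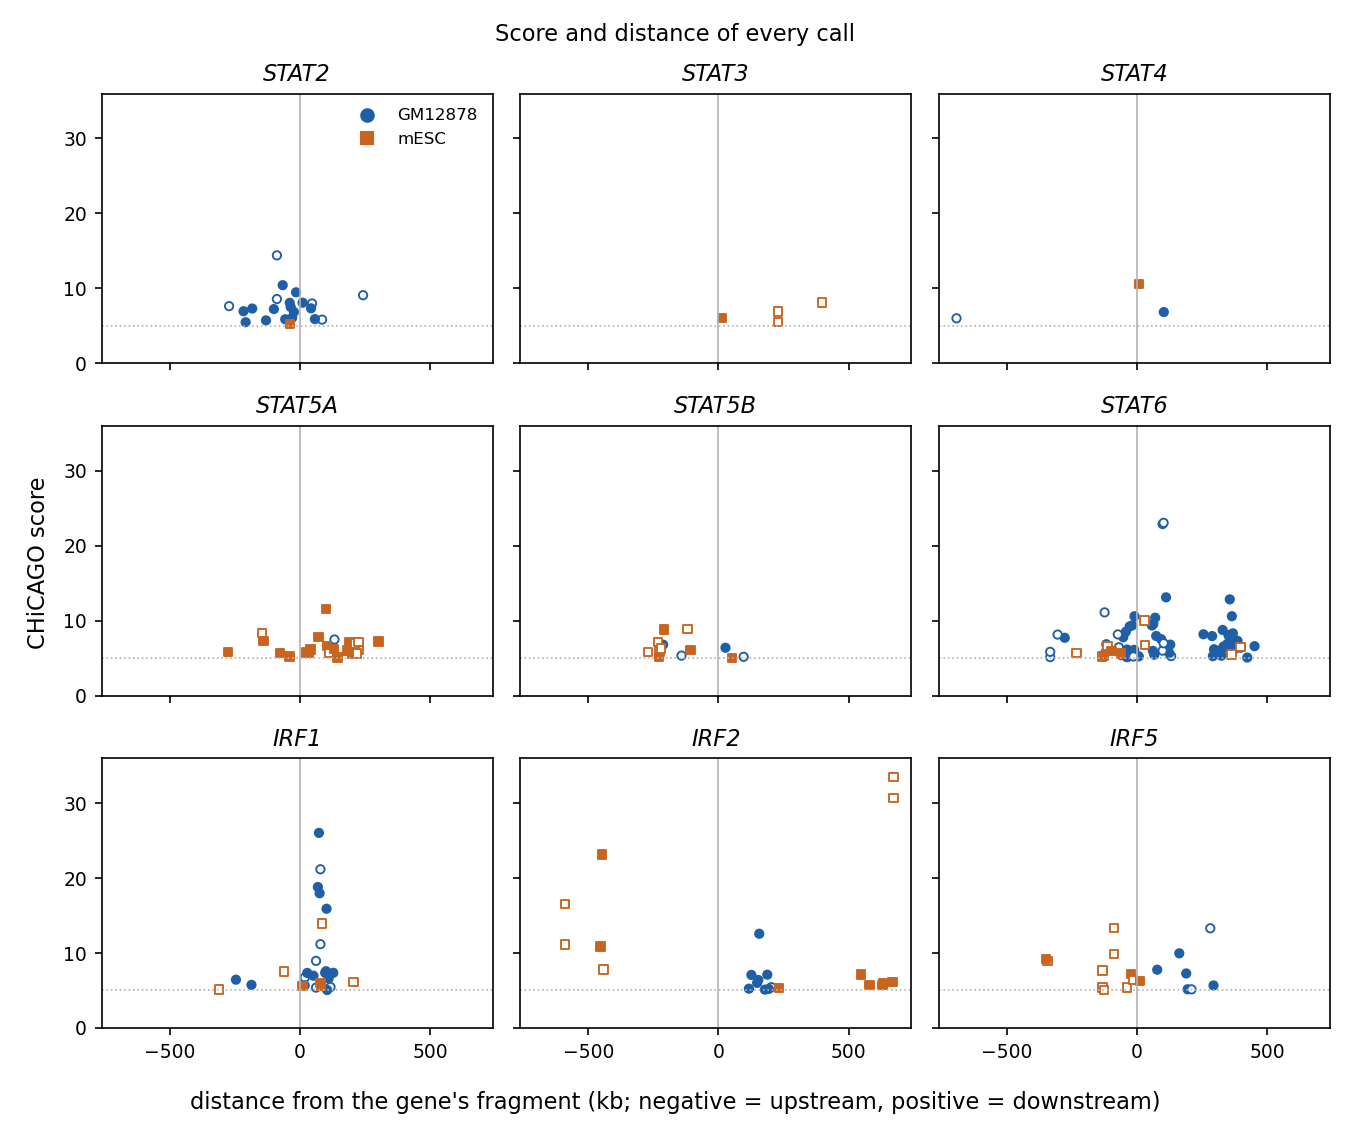
Each panel is 1 gene, with the signed distance in kb from the gene's fragment on the horizontal axis (negative upstream, positive downstream in the direction of transcription) and the CHiCAGO score on the vertical axis; circles are calls in GM12878 cells, squares calls in mESCs, open symbols bait-to-bait calls, and the dotted line is the listing threshold of 5. The *IRF1* calls in GM12878 cells peak at 26.04 near 73.2 kb downstream, the *Irf2* calls in mESCs at 33.5 at 672 kb, and *IRF5* calls lie downstream in GM12878 cells and mostly upstream in mESCs.

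*STAT2*, a partner of IRF9 in the complex formed after type I interferon, had 21 calls in GM12878 cells and 1 in mESCs. Its highest human score, 14.4 on 36 reads, was on *TIMELESS*, a replication fork protection gene 88.3 kb upstream, and the same pair scored 8.56 from the *TIMELESS* bait. A second fragment, with an exon of *TIMELESS*, scored 10.4 on 21 reads at 66.0 kb. The longest call, 272 kb, reached *BAZ2A*, a chromatin remodelling gene, on 17 reads (7.61). In mESCs, the single call lay 36.5 kb upstream in an intron of *Timeless*, on 10 reads with a score of 5.21. The *Timeless* gene was therefore contacted in each cell type, although among the calls of *STAT2* it was on a baited fragment in GM12878 cells only. Outside the rule for members, 10 calls from 10 baits landed on 2 unnamed fragments inside *Stat2* in mESCs. In GM12878 cells, 15 calls from 9 baits landed on 4 unnamed fragments inside *STAT2*. A bait of *TIMELESS* was among the baits in each cell type. The mouse bait is 445 bp long and the human one 2677 bp, and the part of this difference in the numbers of calls was not tested.

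*STAT4*, which acts downstream of interleukin-12, had few calls in both cell types. In GM12878 cells, one call lay in an intron of *STAT4* itself, 103 kb downstream (6.82, 10 reads), and the other reached *SDPR*, the gene of the caveolar protein cavin-2, 694 kb upstream (5.99, 6 reads), the longest human call of the 9 genes. In mESCs, the call lay 7.92 kb into *Stat4* and scored 10.5 on 43 reads.

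*STAT6*, which acts downstream of interleukin-4 and interleukin-13, had the most calls in GM12878 cells. The bait that carries *MYO1A*, a brush border myosin gene, and *TAC3*, the neurokinin B gene, contacted both *STAT6* fragments, with scores of 23.1 on 24 reads for the fragment without *LRP1* and 22.9 on 29 reads for the one with it. Seen from the *STAT6* side, the same pairs scored 6.98 and 5.99. The 2 neighbouring fragments had 14 contacted fragments in common, which is 66.7% of the 21 contacted by the one without *LRP1* and 38.9% of the 36 contacted by the one with it. The next score, 13.1 on 27 reads, came from the fragment with *LRP1*, so it cannot be assigned to *STAT6*. It belonged to an unbaited fragment 111 kb downstream with a further start of *TAC3*. From the fragment without *LRP1*, the next score was 9.38 on 38 reads, 17.9 kb upstream on a fragment with an exon of *LRP1*. The longest call of *STAT6*, 452 kb from the fragment without *LRP1*, reached an exon of *PTGES3*, a co-chaperone gene, on 8 reads (6.59). In mESCs, *Stat6* had 10 calls, of which 7 were seen from the partner's bait. The highest score was 10.0 on 20 reads, with *Tmem194*, a nuclear envelope gene 28.6 kb downstream, followed by *Nab2*, an EGR corepressor gene (6.76, 27 reads), and *Shmt2*, a mitochondrial folate enzyme gene (6.65, 22 reads).

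*STAT3*, *STAT5A* and *STAT5B* are neighbours in both genomes and were listed more in mESCs than in GM12878 cells. *STAT5A* and *STAT5B* encode near-identical proteins that respond to interleukin-2, growth hormone and prolactin. The single human call of *STAT5A* reached *PTRF*, which encodes cavin-1 of caveolae, 131 kb away on 12 reads with a score of 7.57. *STAT5B* had 4 calls, of which the highest (6.79, 11 reads) lay 213 kb upstream on an unbaited fragment with a start of *ATP6V0A1*, a proton pump subunit gene, and the others reached an intron of *STAT5B* (6.38, 26 reads), *PTRF* (5.33, 18 reads) and the shared fragment of *HCRT* and *KCNH4* (5.17, 26 reads). In mESCs, the 22 calls of *Stat5a* rested on 6 to 30 reads, and the highest, 11.5 on 22 reads, lay 99.5 kb downstream in an exon of *Ptrf*. It was followed by *Kat2a*, a histone acetyltransferase gene 145 kb upstream (8.38, 14 reads), and an intron of *Stat3* 71.4 kb downstream (7.83, 20 reads). *Stat5b* had its highest score, 8.88 on 17 reads, on *Ptrf*, 119 kb upstream, then on an exon of *Atp6v0a1* (8.83, 9 reads) and on *Coasy*, the coenzyme A synthase gene (7.15, 11 reads). Of 21 fragments contacted by *Stat5a* and 9 by *Stat5b*, 6 were the same, which is 28.6% and 66.7% of them. The baited fragments of the pair share no alignment of at least 100 bp at 95% identity in either genome. Below that cut-off, the human fragments share 112 alignments, the longest 322 bp at 82.3% identity, and the mouse fragments 0. The part of sequence likeness in the shared contacts was not tested.

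*Stat3* had 4 calls in mESCs. The highest score, 8.08 on 10 reads, was on *Ttc25*, a ciliary gene 399 kb downstream, and *Kat2a* was contacted 228 kb downstream on 9 reads, with scores of 6.88 and 5.49 from either end. The other call lay within *Stat3*, 12.5 kb from its bait (6.06, 29 reads), on the fragment that *Stat5a* also contacted. In GM12878 cells, the nearest listed bait to the *STAT3* start was that of *AC107993.1* (17:40543687-40554702), 3.13 kb away, which had 26 calls, 9 of them inside *STAT3*. In all, 25 calls from 8 baits landed on 9 unnamed fragments inside *STAT3*, and the highest of them, from *AC107993.1*, scored 20.0 on 35 reads at 81.8 kb. These calls are outside the rule for members. In mESCs, the *Stat5a* bait contacted 3 fragments inside *Stat3* and 2 inside *Stat5b*.

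Between the cell types, 8 of the 9 genes had a call in both lists. So did 8690 symbols in all, out of 21999 listed in GM12878 cells and 17014 in mESCs. At least 2 times more calls in GM12878 cells were listed for *STAT2*, *STAT4*, *STAT6* and *IRF1*, 4 of 8 members, beside 31.6% of all matched genes. At least 2 times more in mESCs were listed for *STAT5A* and *STAT5B*, 2 of 8, beside 34.6%. Both counts are small, and with 1 list per cell type neither was tested. *STAT4* is placed by 2 calls against 1. *STAT6* is placed by 60 against 10 and, without the fragment that it shares with *LRP1*, by 22 against 10.

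**Figure D3:**
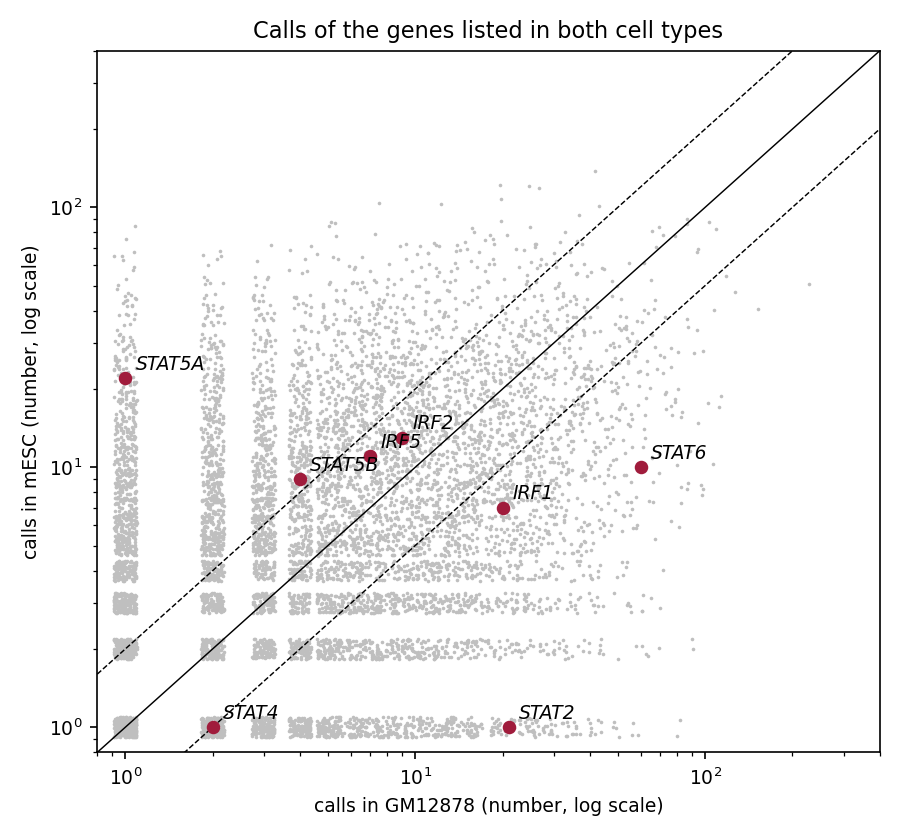
Each grey point is 1 of the 8690 gene symbols with a call in both lists, with its number of calls in GM12878 cells on the horizontal and in mESCs on the vertical axis (log scales, grey points spread slightly so that they do not overlap); red points are the 8 members at their exact values, the solid line marks equal numbers and the dashed lines 2 times more in either cell type. *STAT2* and *STAT5A* lie far from the line in opposite directions, at 21 against 1 and 1 against 22 calls, while *IRF2* and *IRF5* lie between the dashed lines.

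A partner gene, here a symbol named on the other fragment of a call, was shared between the cell types for 3 of 8 members, beside 39.2% of the matched genes. Genes on unnamed fragments do not count, and neither do genes that carry different symbols in the 2 species. Among others, this leaves out *TIMELESS* for *STAT2*, and *ATP6V0A1* for *STAT5B*, contacted at 6.79 in GM12878 cells and 8.83 in mESCs. It also leaves out *HSD17B6* for *STAT6*, at 12.84 (fragment with *LRP1*) and 8.3 (fragment without it) in GM12878 cells and 5.47 in mESCs. *LRP1* itself was not counted for *STAT6*, because it is named on a *STAT6* fragment. Fragments of *LRP1* were contacted at up to 9.38 from the human fragment without it, and at up to 5.92 in mESCs. *STAT5A* and *STAT5B* each contacted *PTRF* in both, on 12 and 18 reads in the human line and on 22 and 17 in mESCs. The distances were 131 and 142 kb in GM12878 and 111 and 119 kb in mESCs. *PTRF* was the only partner of human *STAT5A* and 1 of 3 of human *STAT5B*, and 1 of 5 of each mouse gene. *STAT6* shared *NACA*, which encodes a subunit of the nascent polypeptide-associated complex, and *STAC3*, a muscle excitation-contraction coupling gene. *NACA* lay 398 kb downstream in each, with 18 reads (6.38) in GM12878 and 9 (6.44) in mESCs, and the human call came from the fragment shared with *LRP1*. *STAC3* lay upstream in each, at 125 kb (11.1, 18 reads) and, from the fragment without *LRP1*, 121 kb (5.78, 10 reads) in GM12878 cells, and at 135 kb (5.21, 10 reads) in mESCs. These 2 are 14.3% of the human and 28.6% of the mouse partners of *STAT6*.

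Bait-to-bait calls, which join 2 captured promoters, made up 27.4% of the members' human calls (34 of 124, Wilson 95% interval 20.3 to 35.9%), beside 29.4% of all calls. In mESCs they made up 48.7% (38 of 78, 37.9 to 59.6%), beside 36.3%. The intervals cover counting error only, and calls of neighbouring fragments are not independent. In mESCs, *Irf5* had the most, with 8 of its 11 calls, followed by *Stat6*, with 7 of 10, and *Stat5a*, with 6 of 22. Of the distinct bait-to-bait pairs of members, 7 of 27 in GM12878 cells (25.9%, 13.2 to 44.7%) and 6 of 32 in mESCs (18.8%, 8.89 to 35.3%) were called from both ends, beside 18.5% and 26.2% of all such pairs. Of the calls to unbaited fragments, 22.2% in GM12878 cells (20 of 90, 14.9 to 31.8%) and 15.0% in mESCs (6 of 40, 7.06 to 29.1%) ended on a fragment with a start of a protein-coding gene. These shares stand beside 17.5% and 12.2% of all such calls. Fragments that overlap no protein-coding gene were the other end of 28.9% (20.5 to 39.0%) and 20.0% (10.5 to 34.8%) of these calls, beside 34.5% and 37.5% of all. The mESC interval lay below the value of all calls, but 16 of its 40 calls came from *Stat5a* alone, so no difference is drawn from it.

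The bait that contacted the most fragments in common with a member lay 3.70 to 767 kb from it. Both ends of this range rest on 1 shared fragment. The longest was that of *STAT4* in GM12878 cells, in a tie with another bait, and the shortest that of *Stat2* in mESCs, where 15 baits tied. For human *STAT5A*, 8 baits tied, also at 1 shared fragment. In GM12878 cells, the bait of *NABP2* and *SLC39A5* contacted 16 of the 20 fragments of *STAT2*, which is 26.2% of its own 61, in a tie with 1 other bait. The bait with *C5orf56* nearest to *IRF1* contacted 8 of its 17, 80.0% of its own 10. *RP11-545N8.3*, 17.8 kb away, contacted 19 of the 36 fragments of the *STAT6* fragment with *LRP1*. In mESCs, *Flnc* contacted 8 of the 9 fragments of *Irf5*, *Kcnh4* 13 of the 21 of *Stat5a* and *Il5*, a cytokine gene 51.4 kb from *Irf1*, 4 of its 7, also in a tie.

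Hi-C of mESCs gave a readout that did not serve to choose the genes. The paper describes it as pre-capture Hi-C, so it may not be independent of the CHi-C libraries. Of the 78 calls, all under 1 Mb, 10 lay with both midpoints in an interacting pair of 25-kb bins with an FDR under 0.05 (12.8%, Wilson 95% interval 7.12 to 22.0%), beside 11.6% of all 97826 calls of this range. They belonged to *Irf2* and *Irf5*, with 3 each, *Stat5a*, with 2, and *Stat5b* and *Irf1*, with 1 each. The bin pair of *Irf2* and *Gm10083* was joined by 16 read pairs where 3.46 were expected, and held 3 of the calls. The bin pair with *Irf5* and *Opn1sw*, a cone opsin gene, was joined by 26 read pairs where 6 were expected, and also held 3. The *Stat5a* and *Stat5b* calls all fell in 1 bin pair, joined by 17 read pairs where 4.31 were expected, and the call of *Irf1* to a fragment 10.2 kb away fell in a pair of bins joined by 59 where 23.2 were expected. The 10 calls thus rest on 4 bin pairs, and the 2 *Irf5* calls with *Flnc*, at 31 reads, were in none.

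Other genes of the pathway were read from a list of 30, of which 28 were listed in GM12878 cells and 26 in mESCs (the plot of calls of other genes of the pathway). The 24 with a call in both had medians of 8.5 and 5 calls, and 9 of them had at least 2 times more in GM12878 cells and 5 at least 2 times more in mESCs, beside the 31.6% and 34.6% of all matched genes. Among the kinases, *JAK2* had 23 and 6 calls and *TYK2* 21 and 5, in GM12878 cells and mESCs, and *JAK3*, the kinase of the common gamma chain, had 5 and 0, while *JAK1* had 0 and 1. Among the receptors, *IFNAR2* had 25 and 3 calls, *IFNGR1* 6 and 0 and *IFNGR2*, the other chain of the interferon gamma receptor, 0 and 4. Of the other factors, *IRF4*, which acts in B cells and plasma cells, had 47 and 8, *IRF8*, a B cell and myeloid factor, 15 and 1, and *IRF7* 7 and 26. Of the inhibitors and phosphatases, *PTPN2* had 30 and 8 calls, *SOCS2* 13 and 2, *PIAS4*, a SUMO ligase gene, 1 and 50, and *CISH*, a target and inhibitor of STAT5, 5 and 13. Both listed IRF2 binding protein genes with calls in each, *IRF2BP1* and *IRF2BP2*, had more in mESCs, at 4 and 32 and at 14 and 28, while *IRF2BPL* had 23 and 0. No gene of this list and no other member was named at the other end of a call of the 9 genes.

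**Figure D4:**
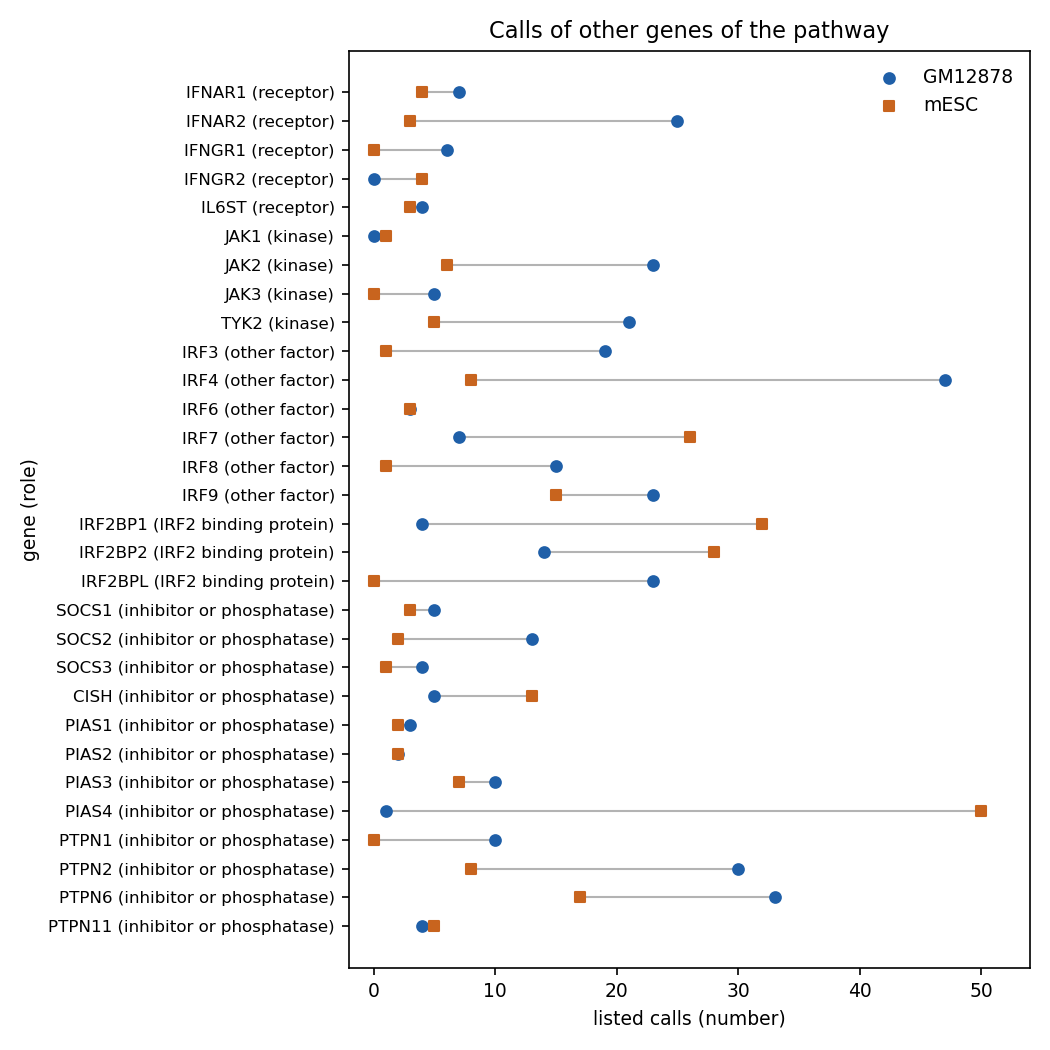
Each row is 1 of 30 other genes of the pathway with its role, circles give its number of listed calls in GM12878 cells and squares in mESCs, joined by a line. *IRF4* is highest in GM12878 cells, with 47 calls against 8, and *PIAS4* in mESCs, with 50 against 1.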

How the data were processed

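Promoter CHi-C of GM12878 (3 replicates) and mESCs (2) and Hi-C of mESCs (1 library) were analysed. The authors mapped read pairs with HiCUP and Bowtie 1.1.0 to hg19 or mm9, merged replicates and called interactions with CHiCAGO. The deposited score is −log of a distance-weighted p-value after soft thresholding (5 or more), and the deposited read count is a rounded weighted mean, not raw. For Hi-C, the authors used HOMER 4.7 and deposited counts of read pairs per bin pair, the number expected and an FDR (adjusted p-value). Pairs under 0.05 were kept, 6135 of 62666, and 13 further Hi-C value columns were not used.

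Symbols were split on semicolons, and also on bars and commas, which join them in the mESC list, and transcript suffixes were removed. All fragments at either end of the members' calls (111 in GM12878 cells and 73 in mESCs) ended at *Hin*dIII sites of the reference. GENCODE annotation of the same builds gave starts, exons and introns. Distances ran between midpoints, and "downstream" follows the gene's strand. Python 3.11.15, pandas 2.3.3, scipy 1.17.1 (Wilson intervals) and blastn were used, and the counting was checked on simulated lists. No test between cell types was possible with 1 list each. The named genes are the members, those at each member's 3 highest-scoring calls and longest call, pathway genes there, shared partners and baits with the most common contacts. A few more, such as *SLC22A5*, *TSPAN33* and *OPN1SW*, were named after their values were seen. The members and lists were chosen with earlier results of these data known. Some results for other genes are not reported here.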

Additional observations from a re-analysis of the deposited data

How the results depend on the processing

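No paired analysis was possible because the replicates of each cell type were merged into 1 list before deposit, and leaving out a replicate was not possible for the same reason. A score of at least 10 moved the most: the 9 genes kept 18 calls in GM12878 cells and 11 in mESCs. Median distances were 93.3 and 448 kb and bait-to-bait shares 38.9% and 63.6%. In mESCs, 6 of these 11 calls were of *Irf2* alone, at 448 to 672 kb. Of the 17 gene and cell type combinations with calls, 11 had any at that score. At that score, 4 genes had calls in both lists, 2 had at least 2 times more in GM12878 cells, 1 had at least 2 times more in mESCs, 0 shared a partner, and 27.3% of the mESC calls (3 of 11) lay in a Hi-C bin pair. With calls on at least 10 reads, the mESC median distance was 111 kb and 1 gene had at least 2 times more calls in mESCs. With every listed Hi-C bin pair, 28.2% of the calls (22 of 78) lay inside. Counting each fragment pair once, using the bait end alone or using the browser list gave 108 to 117 calls in GM12878 cells and 54 to 72 in mESCs. With the bait end alone, in mESCs, *Stat6* had 3 calls in place of 10, *Irf1* 3 in place of 7 and *Irf5* 7 in place of 11, as many as *IRF5* in GM12878 cells. Dividing by the totals of the lists left the numbers of genes with at least 2 times more calls at 4 and 2, and partners on baited fragments alone left 3 genes with a shared one. An even 25-kb grid in place of the listed bin windows, chosen after the data were seen, gave 10.3% (8 of 78). Leaving out the fragment shared with *LRP1*, also chosen then, left 86 calls in GM12878 cells, 22 of them of *STAT6*. Low read numbers limit the long mESC calls: with at least 10 reads, *Irf2* had 6 calls and *Stat5b* 3.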
